A study of Mus musculus with 5 samples.

Results

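The genes described here are 10 members of the Notch pathway: the receptors Notch1, Notch2, Notch3 and Notch4, the ligands Jag1, Jag2 and Dll1, the DNA-binding factor Rbpj, and the target genes Hes1 and Hey1. They were taken by symbol from a deposited table of 39179 genes, and all 10 were found in it. They were picked with their levels in KO and control libraries already known, so the difference between KO and control is given for them as a description, without a test. RNA was sequenced from TER119-positive erythroid cells of C57BL/6 mouse fetal liver, sorted by flow cytometry at 14.5 days post conception. The 2 KO libraries had the genotype Csnk2bfl/fl Vav+/Cre, with both copies of Csnk2b floxed. Csnk2b encodes the regulatory subunit of the protein kinase CK2. The 3 control libraries were Csnk2b+/+ Vav+/Cre, so both groups carried the Cre transgene, whose Vav1 promoter is active throughout blood-forming cells. The labels call each library an embryo and do not say whether livers were pooled, so p-values measure only the spread between these samples, which may be technical.

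Notch receptors are single-pass membrane proteins that are activated by ligands of the Jagged and Delta-like families on a neighbouring cell. Ligand binding exposes the receptor to cleavage by ADAM proteases and then by gamma-secretase, and the freed intracellular domain enters the nucleus, binds RBPJ and switches on genes such as Hes1 and Hey1, which encode transcriptional repressors. In fetal liver, Jag1 and Notch2 are known for their role in bile duct formation, and Notch signalling also acts in blood stem cells and in early lymphoid development.

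Library totals lay between 13187094 and 15366021 counts, and levels are given as CPM, a gene's counts scaled to a common library total, on library sizes adjusted by the TMM method. Csnk2b stood at 112 and 95.6 CPM in KO replicates 1 and 2, against 186, 186 and 169 CPM in control replicates 1, 2 and 3, a log2 fold change of -0.80 ± 0.09 (SE). Summed CPM of 8 erythroid markers was 46971 and 37446 in KO libraries and between 41923 and 51900 in controls. Control replicate 3 held 1142 counts of 4 Y-linked genes, where no other library held more than 2. Xist was at 547 CPM in it, against 1000 and 788 CPM in KO libraries and 1026 and 995 CPM in control replicates 1 and 2. Whether control replicate 3 mixed embryos of both sexes was not tested. Without control replicate 3, 339 genes in place of 669 were called higher over the whole table and 61 in place of 238 lower. Removing another control cost more calls: 230 were higher and 53 lower without control replicate 1. Without control replicate 2, 210 were higher and 31 lower. Low values in the table varied less than independent counts would. Over genes with a mean above 2 and up to 8 scaled counts, the summed variance was 0.814 times the summed mean between KO libraries and 0.619 times between controls, where counting alone gives 1. Values of a few counts are therefore given as listed, and intervals drawn from counting are only a guide there.

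Notch3 and Jag2 stood out among the 10 members. Both were nearly silent in control cells and were many times higher in the KO cells, while the receptors Notch1, Notch2 and Notch4 lay within the range of their controls or close to it, and the targets Hes1 and Hey1 stayed at a few counts per library in both groups. Only 6 members had enough counts to enter the fit, and 2 of them, Notch3 and Jag2, were called higher in KO at an edgeR adjusted p below 0.05, where 5.15% of the 13000 genes fitted were called higher and 6.98% in either direction. None was called lower, against 1.83% of all genes fitted, and DESeq2 and limma-voom each called 2. In edgeR 3 of the 6 had an unadjusted p below 0.05, as had 3097 of the 13000 genes fitted, the base for each such count below. Notch3 and Jag2 passed the filter on low counts only through their KO libraries, and a gene kept in that way had to differ, so these counts are printed for completeness and nothing is read from them. Of all 10 members, 4 had both KO libraries above every control (Notch3, Jag2, Jag1 and Rbpj), an arrangement held by 18.3% of the 21077 genes with a count and by 21.9% of those fitted. None had both KO libraries below every control, against 13% of the genes with a count and 19.3% of those fitted.

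**Figure D1:**
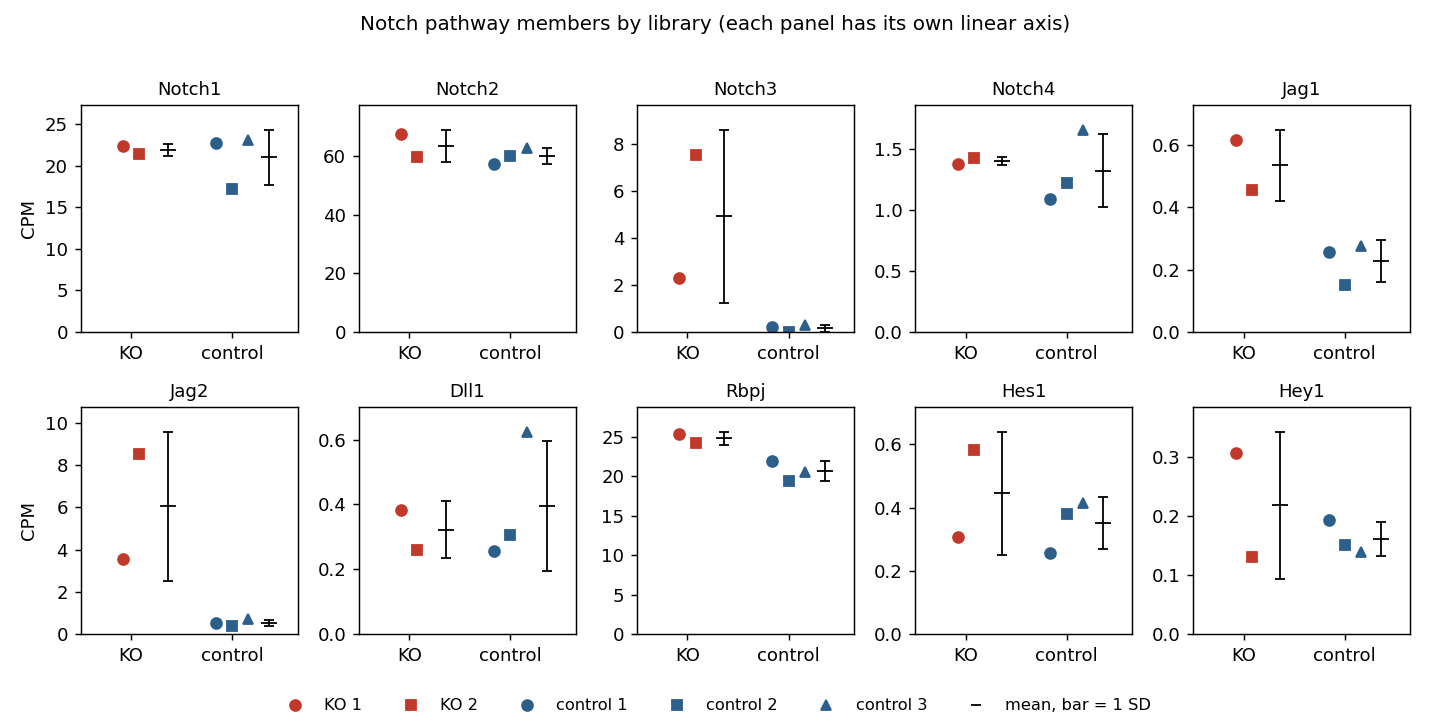
CPM of each member in the 2 KO libraries (red) and the 3 control libraries (blue), with the mean and 1 SD in black; every panel has its own linear axis from 0. Notch3 and Jag2 lie at 2.31 to 8.55 CPM in KO libraries and below 1 CPM in controls, whereas Notch1, Notch2, Notch4, Dll1, Hes1 and Hey1 overlap between groups.

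Notch2 was the most abundant receptor. It was at 67.3 and 59.6 CPM in KO libraries, against 57.2, 59.9 and 62.6 CPM in controls, and the groups overlapped. The log2 fold change was 0.08 ± 0.08 (SE), and it was -0.03 without KO replicate 1. Notch1, the receptor best known for its role in T cell development, was at 22.4 and 21.4 CPM in KO libraries, against 22.8, 17.2 and 23.1 CPM in controls. Both KO values lay inside the control range, with a log2 fold change of 0.05 ± 0.13 (SE). Notch4, a receptor known from blood vessel endothelium, was far lower, at 1.38 and 1.43 CPM in KO libraries, against 1.09, 1.22 and 1.66 CPM in controls. These values rest on 18 and 22 counts in KO libraries and 16 to 24 counts in controls, and the log2 fold change was 0.09 ± 0.25 (SE).

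Notch3, the receptor known from pericytes and arterial smooth muscle, was at 2.31 and 7.52 CPM in KO libraries, against 0.193, 0 and 0.277 CPM in controls. It had 30 and 116 counts in KO replicates 1 and 2, beside 3, 0 and 4 counts in control replicates 1, 2 and 3. Both KO libraries lay above every control, and KO replicate 2 was the higher of the pair. The mean was 4.91 CPM ± 3.68 (SD, n = 2) in KO and 0.157 CPM ± 0.142 (SD, n = 3) in controls. On the log2 scale the fold change was 4.88 ± 0.71 (SE), which is 29.4-fold. Its size depended on single libraries: it was 3.75 without KO replicate 2, 5.44 without KO replicate 1, 4.37 without control replicate 2 and 5.47 without control replicate 3. The ratio of summed counts, 146 in KO against 7 in controls and scaled to library size, was 31.6, with a 95% interval from 15 to 80 that covers counting error only.

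Notch3 (ENSMUSG00000038146) is a minus-strand gene at chr17:32120820-32166852 (mm10), and Notch4 (ENSMUSG00000015468) a plus-strand gene at chr17:34564268-34588503. Both are on the chromosome of the targeted gene, 2.95 Mb and 0.528 Mb from Csnk2b. The stretches before their RefSeq start sites (build GRCm38.p6), ending before any annotated exon, are printed 5′ to 3′ on the gene's strand because one of these receptors was far higher in KO cells and the other was not; that of Rbpj is added because it alone held the core of the RBPJ motif. Capitals mark matches to TGGGAA, the core bound by RBPJ, and to CACNAG, the N-box bound by HES repressors, on either strand.

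Notch3, chr17:32166891-32167140, minus strand: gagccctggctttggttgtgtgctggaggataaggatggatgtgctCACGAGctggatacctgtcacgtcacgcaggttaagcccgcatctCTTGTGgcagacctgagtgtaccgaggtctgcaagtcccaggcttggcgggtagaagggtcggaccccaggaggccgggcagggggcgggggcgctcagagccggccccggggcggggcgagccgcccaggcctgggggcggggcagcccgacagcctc

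Notch4, chr17:34564045-34564267, plus strand: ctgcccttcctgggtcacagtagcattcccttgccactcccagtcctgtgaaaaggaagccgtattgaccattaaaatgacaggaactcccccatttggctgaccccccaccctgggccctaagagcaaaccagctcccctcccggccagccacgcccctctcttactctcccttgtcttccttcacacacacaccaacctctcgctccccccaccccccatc

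Rbpj, chr5:53590096-53590213, plus strand: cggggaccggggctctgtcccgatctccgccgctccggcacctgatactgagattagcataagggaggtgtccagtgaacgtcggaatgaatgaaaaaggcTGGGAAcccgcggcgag

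RefSeq promoter windows of 300 bases, from 250 before to 50 after the start, were available for 8 of the 10 members, and Hes1 and Hey1 had none. TGGGAA, searched on both strands, occurred in the windows of 1 member, Rbpj, with a second match 65 bases before the start beyond the printed stretch, and in 25.6% of 32851 promoter windows of the genome. The longer form GTGGGAA, which contains it, occurred in none of the members' windows and in 6.38% of all. CACNAG occurred in windows of 4 members, among them Notch3, where matches began 204 and 159 bases before the start site, and in 42.5% of all windows. The HES and HEY E-box CACGTG occurred in none of the members' windows and in 7.15% of all. A match describes the letters in the window and is not a bound site.

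Notch3 shares no 50-base stretch with another member. Of the 7967 windows of 50 bases in its longest annotated transcript, 5.01% also occur in a transcript of another gene. One such gene is Gm17276, an antisense gene that overlaps Notch3 over 21024 bases and was listed at 24 and 29 counts in KO libraries and at 33, 28 and 29 in controls. The labels do not say whether counting used strand, so sense and antisense reads there may be mixed. These counts of Gm17276 are not scaled to library size. In the fit its log2 fold change was -0.165, and it was not called. For Jag2, Jag1, Notch4, Hes1 and Hey1 no 50-base window was shared with another gene. For Rbpj 24.3% of windows were shared, and its level is accordingly less certain.

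Among the ligands, Jag2 carried the difference. Jag2, a Jagged ligand known from limb, craniofacial and thymic development, was at 3.54 and 8.55 CPM in KO libraries, against 0.515, 0.381 and 0.693 CPM in controls. It had 46 and 132 counts in KO replicates 1 and 2 and 8, 5 and 10 counts in control replicates 1, 2 and 3. As with Notch3, both KO libraries lay above every control and KO replicate 2 was the higher. The mean was 6.04 CPM ± 3.55 (SD, n = 2) in KO and 0.53 CPM ± 0.157 (SD, n = 3) in controls, with a log2 fold change of 3.50 ± 0.44 (SE), or 11.3-fold. It was 2.70 without KO replicate 2, 3.96 without KO replicate 1 and between 3.33 and 3.73 without any 1 control. Jag2 (ENSMUSG00000002799) is a minus-strand gene at chr12:112907819-112929776, on another chromosome than Csnk2b.

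Jag1, the Jagged ligand of bile duct formation, had 8 and 7 counts in KO libraries and 4, 2 and 4 counts in controls, which is 0.615 and 0.454 CPM in KO and 0.257, 0.152 and 0.277 CPM in controls. Both KO libraries were above every control, at levels too low for the fit, and the ratio of summed counts was 2.27, with a counting interval from 0.955 to 5.66 that includes equality. Dll1, a Delta-like ligand, had 5 and 4 counts in KO libraries, against 4, 4 and 9 in controls, and the groups overlapped. No difference in Dll1 was detectable at this depth, with a ratio of 0.802 and an interval from 0.315 to 1.9.

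Rbpj, the factor through which all 4 receptors act on DNA, was expressed at a moderate level in both groups. It was at 25.4 and 24.2 CPM in KO libraries, against 21.9, 19.4 and 20.6 CPM in controls. Both KO libraries lay above every control by a small margin, with a log2 fold change of 0.26 ± 0.10 (SE), or 1.2-fold, and it was not called.

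The target genes were close to silent. Hes1, a direct Notch target in many tissues, had 4 and 9 counts in KO libraries and 4, 5 and 6 in controls, or 0.307 and 0.583 CPM in KO and 0.257, 0.381 and 0.416 CPM in controls. KO replicate 1 lay within the control range and KO replicate 2 above it. The ratio of summed counts was 1.31, with a counting interval from 0.575 to 2.96. Hey1, a target known from endothelium and heart, had 4 and 2 counts in KO libraries, against 3, 2 and 2 in controls, and the groups overlapped. Its ratio was 1.3, with an interval from 0.36 to 4.51. Neither target entered the fit, and a change smaller than these intervals could not be seen at this depth.

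Levels of different genes can be compared only per length, here as CPM per kilobase of exon. In KO cells Notch2 led with 5.89 ± 0.506 (SD, n = 2), followed by Rbpj with 1.95 ± 0.0626 and Notch1 with 1.54 ± 0.0488. Jag2 was next at 0.868 ± 0.509 and Notch3 at 0.607 ± 0.456. Their ranges overlapped, but Jag2 was the higher within each KO library. It was at 0.508 against 0.285 for Notch3 in KO replicate 1, and at 1.23 against 0.929 in KO replicate 2. In control cells the first places were the same, with Notch2 at 5.55 ± 0.248 (SD, n = 3), Rbpj at 1.62 ± 0.101 and Notch1 at 1.48 ± 0.232, and the last of these pairs overlapped. Jag2 stood at 0.0761 ± 0.0225 and Notch3 at 0.0194 ± 0.0176, the lowest of the 10. Hes1, at 0.219 ± 0.0957 in KO and 0.173 ± 0.0409 in controls, and Notch4, at 0.174 ± 0.0037 and 0.164 ± 0.0372 in the same groups, did not differ from each other beyond their spread. Jag1, Dll1 and Hey1 averaged no more than 0.0937 in either group, and in controls each gene from Hes1 down to Notch3 overlapped with the next in the order. With the longest transcript as length, Rbpj was at 4.52 in KO and 3.76 in controls and thus well above Notch1, at 2.31 and 2.22 in the same groups.

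**Figure D2:**
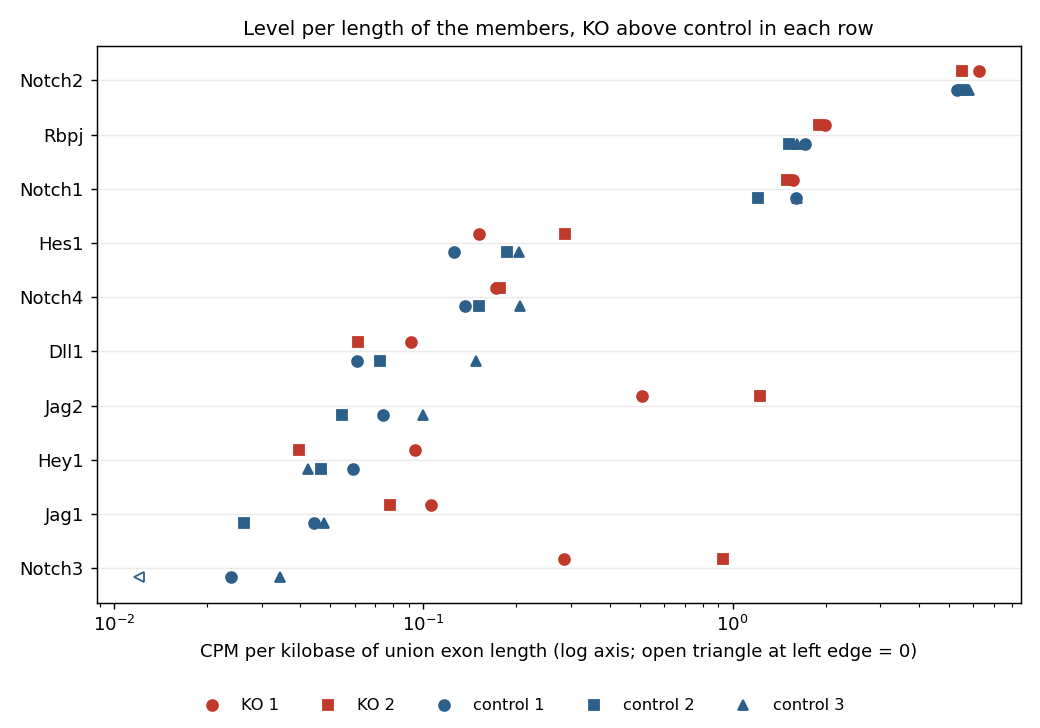
CPM per kilobase of union exon length for each member, on a log axis, with KO libraries (red) above control libraries (blue) in each row and genes ordered by their control mean. Notch3, lowest in controls with a mean of 0.0194, and Jag2, with a control mean of 0.0761, are the rows in which red and blue points lie far apart; the open triangle marks a control library with 0 counts.

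Genes elsewhere in the pathway were read from the same fit over all genes. The list held 104 genes found in the table, of which 79 passed the filter; it was chosen by role, although the values of Cdkn1a, Ccnd1, Myc and Nfkb2 in these data were known when it was written. Of the 79, 9 were called higher and 1 lower in KO cells, which is 12.7% against 6.98% of all genes fitted, and 69 did not pass. Neurl1b is among the 9 and passed the filter only through its KO libraries, so this share is given for completeness. The median log2 fold change was 0.05, beside 0.01 over all genes. Leaving out the 4 genes of known value, 7 were called higher and 1 lower, or 10.7%, with Neurl1b still counted. With 1 library removed, 4 rose when that was any control, 5 when it was KO replicate 2 and 16 when it was KO replicate 1, where the lone KO library left is assumed to vary like the controls. With no filter on low counts 3 rose and none fell, and Mib2, Epn2, Lfng, Numbl, Dtx3l, Kat2a and Ccnd1 missed the threshold.

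Ligand endocytosis is the machinery by which a cell pulls on its own ligand to activate Notch on its neighbour. Of 5 of its genes fitted, 3 were called higher, beside 5.15% over all genes fitted. However, Neurl1b passed the filter only through its KO libraries and had to differ, so nothing is read from its call. Of the other 4 genes 2 rose, Mib2 and Epn2, and both calls were lost in several alternative fits. Neurl1b, a Neuralized ubiquitin ligase, was at 5.53 and 1.81 CPM in KO libraries and at 0.0643, 0.0762 and 0.0693 CPM in controls, which is 1 count in each control. KO replicate 1 was the higher of the KO pair, the reverse of Notch3 and Jag2. The ratio of summed counts was 50.5, with a counting interval from 16.8 to 249. Mib2, a Mind bomb ubiquitin ligase, was at 10.6 and 19.5 CPM in KO libraries, against 7.27, 8.31 and 7.91 CPM in controls, and was 0.96 ± 0.23 higher on the log2 scale (adjusted p = 0.04 in edgeR). Removing any control ended this call, as did limma-voom (adjusted p = 0.058); without KO replicate 2 the log2 fold change was 0.44 (adjusted p = 0.18). Epn2, an endocytic adaptor of the epsin family, was at 4.38 and 4.41 CPM in KO libraries, against 2.38, 2.74 and 2.36 CPM in controls (edgeR adjusted p = 0.021). Its call was lost when any control or KO replicate 2 was removed, with the replicate number as a block (edgeR adjusted p = 0.059) and in DESeq2, where the adjusted p was highest at 0.14.

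Among the 9 sugar-transferring enzymes that modify the receptor's extracellular repeats, Lfng was the 1 that passed, or 11.1% called lower beside 1.83% over all genes fitted. Lfng, or lunatic fringe, fell to 21.9 and 22.8 CPM in KO libraries, against 28.8, 36.1 and 33.6 CPM in controls. Its log2 fold change was -0.55 ± 0.11 (edgeR adjusted p = 0.021), and it missed the threshold without control replicate 2 or 3, at an adjusted p of up to 0.09. None of the 10 protease genes passed in edgeR, DESeq2 or limma-voom. An unadjusted p below 0.05 in edgeR was found for 4 of them, beside 3097 of the 13000 genes fitted. Adam10, the protease of the first ligand-induced cut, was at 631 CPM ± 80.3 (SD, n = 2) in KO and 685 CPM ± 25.3 (SD, n = 3) in controls, and without KO replicate 1 it was called lower, by -0.28 on the log2 scale (adjusted p = 0.032 in edgeR). Ncstn, a gamma-secretase subunit, was at 76.8 CPM ± 4.97 in KO and 75.7 CPM ± 2.45 in controls (SD, n = 2 and 3).

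Of 13 genes of receptor trafficking and turnover, 2 rose, or 15.4%, beside 5.15% over all genes fitted. Dtx3l, a Deltex-family ubiquitin ligase that works with Parp9 in interferon responses, was at 113 and 49.4 CPM in KO libraries, against 21, 25.8 and 23.2 CPM in controls, so it was 1.80 ± 0.28 higher on the log2 scale (adjusted p = 0.0074 in edgeR). The adjusted p was 0.051 and 0.052 with control replicate 1 or 2 removed, and the log2 fold change was 1.07 without KO replicate 1. Parp9 overlaps it by 682 bases on the other strand and was listed at 1335 and 737 counts in KO libraries and at 299 to 309 counts in controls, and the reads of that overlap may be mixed. Numbl, a relative of the Notch inhibitor Numb, was at 3.54 and 3.11 CPM in KO libraries, against 1.42, 1.91 and 1.53 CPM in controls (edgeR adjusted p = 0.016). The adjusted p of Numbl reached 0.088 and 0.066 with control replicate 1 or 3 removed, and 0.11 in DESeq2.

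In the nucleus, 1 of 8 coactivators and 1 of 16 corepressors rose, or 12.5% and 6.25%, the second of which is near the 5.15% over all genes fitted. Kat2a, a histone acetyltransferase, was at 92.2 and 95.8 CPM in KO libraries, against 74.1, 76.3 and 76.5 CPM in controls, which is 0.31 ± 0.07 higher on the log2 scale (adjusted p = 0.027 in edgeR). This call was lost when any control or KO replicate 2 was removed, at p-values up to 0.13, and with the replicate number as a block (adjusted p = 0.074). Fhl1, a LIM-domain gene of which a short isoform binds RBPJ and represses its targets, was at 67.9 and 56.8 CPM in KO libraries, against 6.18, 6.86 and 7.07 CPM in controls. The rise was 9.29-fold (edgeR adjusted p = 2.1e-06) and held in every alternative fit. The counts cover the whole gene and do not separate its isoforms.

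Outside Hes1 and Hey1, none of the other HES and HEY genes passed in edgeR, DESeq2 or limma-voom, and only 2 of 7, Hes6 and Hey2, had enough counts to be fitted. Hes6, a family member known to oppose Hes1 in the nervous system, was at 10.6 and 15.5 CPM in KO libraries and at 8.81, 9.98 and 9.22 CPM in controls, a log2 difference of 0.49 ± 0.17 (adjusted p = 0.12 in edgeR). It was the 1 gene of the pair with an unadjusted p below 0.05, and its adjusted p was 0.009 without KO replicate 1. Hey2 was at 1.14 CPM ± 0.237 (SD, n = 2) in KO and 0.955 CPM ± 0.234 (SD, n = 3) in controls. Among 13 other genes reported as Notch targets in some tissue, Cdkn1a and Ccnd1 rose, or 15.4%, beside the same 5.15%. Cdkn1a was at 87.6 and 67.9 CPM in KO libraries, against 4.57, 4.65 and 5.62 CPM in controls, a log2 fold change of 3.97 ± 0.14 (adjusted p = 2.1e-06 in edgeR) that was called in every alternative fit. Ccnd1 was at 21.4 and 24.6 CPM in KO libraries, against 17, 13 and 14.9 CPM in controls, or 0.62 ± 0.13 in log2 terms (adjusted p = 0.025 in edgeR). LTO1 overlaps Ccnd1 by 1771 bases on the other strand, and the reads of that overlap may be mixed. It was listed at 214 and 245 counts in KO libraries and at 251, 217 and 231 counts in controls. Cdkn1a, for the cell cycle inhibitor p21, and Ccnd1, for cyclin D1, are also targets of several other pathways, and the adjusted p of Ccnd1 was 0.094, 0.09 and 0.11 with control replicate 2, control replicate 3 or KO replicate 2 removed. Nrarp, a direct target and feedback inhibitor of Notch that is named here after its values were seen, differed by -0.11 ± 0.15 in log2 terms (adjusted p = 0.7 in edgeR), at 6.98 CPM in KO and 7.53 CPM in controls. Of the 3 other ligands fitted none passed in edgeR, DESeq2 or limma-voom and 1 had an unadjusted p below 0.05. That was Dll4, a Delta-like ligand known from endothelium and named after its values were seen, at 0.922 and 1.94 CPM in KO libraries and 0.579, 0.381 and 0.902 CPM in controls. Both KO libraries lay above every control, with a log2 difference of 1.22 ± 0.40 (adjusted p = 0.11 in edgeR). Dll4 had 12 and 30 counts in KO libraries and 9, 5 and 13 in controls. Its control libraries alone would not have kept it in the fit, so nothing is read from its p-values. Dlk1, a Delta-like protein of fetal liver, was at 10.4 and 12.4 CPM in KO libraries and between 7.63 and 10.7 CPM in controls. Egfl7, secreted by endothelium, was at 10.6 and 21.9 CPM in KO libraries and between 11.4 and 13.7 CPM in controls, so its KO libraries fell on either side of the controls, and its adjusted p was 0.0044 without KO replicate 1.

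**Figure D3:**
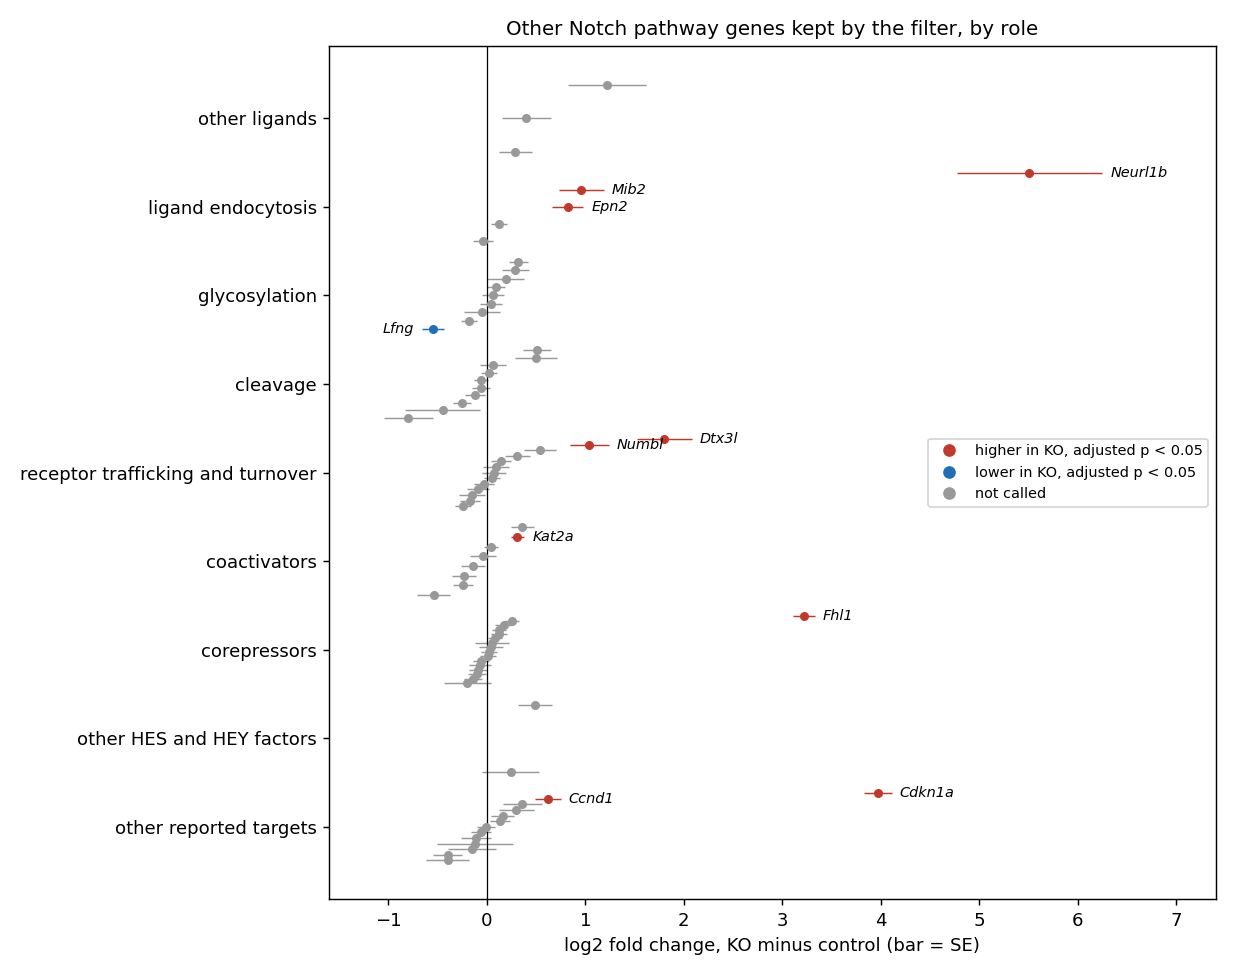
Log2 fold change, KO minus control, with its SE for each of the 79 other pathway genes fitted, grouped by role; red and blue points passed an edgeR adjusted p of 0.05 upward and downward. Most genes lie near 0, and Neurl1b at 5.51, Cdkn1a at 3.97 and Fhl1 at 3.22 lie farthest to the right.

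Since Notch3 and Notch4 share a chromosome with the targeted gene, the genes around Csnk2b were read from the same fit. Within 5 Mb of Csnk2b 164 genes were fitted, of which 29 rose and 2 fell, or 18.9% (11 rose without control replicate 1 or 2, 13 without control replicate 3, 20 without KO replicate 2, and 45 without KO replicate 1), beside 6.82% of the genes fitted outside that window. Without the members in it the share was 18.5%, and within 2 Mb it was 22%. The window takes in the major histocompatibility complex. Among the genes that rose were H2-K1, H2-D1, Tap1, Tap2 and Tapbp, of class I and peptide loading, and the heat shock genes Hspa1a and Hspa1b. Others of that complex, such as H2-Q10 and Psmb8, did not pass. The part of position in this share was not tested. Of the fitted genes next to Notch3, Sik1 and Rrp1b on one side had log2 fold changes of 0.03 ± 0.15 and 0.27 ± 0.08, and Ephx3 on the other had a value of -0.22 ± 0.27, and these did not pass in edgeR. Next to Notch4, H2-Ab1, H2-Aa and Gpsm3 did not pass, and Pbx2 rose to 115 CPM in KO, against 87 CPM in controls (adjusted p = 0.0089 in edgeR). Dll1 lies 19.7 Mb from Csnk2b on the same chromosome, and none of the 4 genes nearest to it passed. Of the pathway genes called higher, Cdkn1a and Neurl1b also lie on chromosome 17, 6.02 Mb and 8.67 Mb from Csnk2b and outside the window. The labels do not describe the origin of the floxed allele, and the part of its position in the level of Notch3 was not tested.

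**Figure D4:**
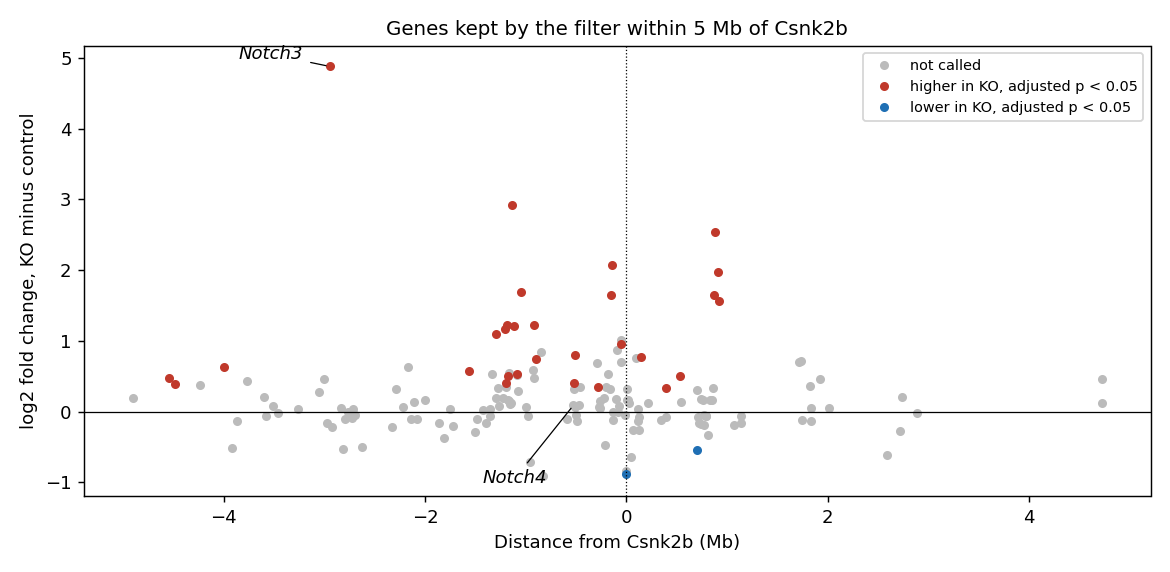
Log2 fold change, KO minus control, of the genes fitted within 5 Mb of Csnk2b, against their distance from it in Mb; red and blue points passed an edgeR adjusted p of 0.05 upward and downward. Notch3, at 4.88 and 2.95 Mb away, is the highest point, and Notch4, 0.528 Mb away, lies near 0 at 0.09.

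Notch3, Notch4, Jag1, Hes1 and Hey1 are known from other cells of the fetal liver, and in bulk RNA fewer cells of a type and less RNA per cell cannot be told apart, so marker lists of such cells were read beside them. Markers of pericytes, stellate cells and smooth muscle, cells known for Notch3, summed to 106 and 72.8 CPM in KO libraries and 36.7 to 42.3 CPM in controls. The sum was highest in KO replicate 1, where Reln alone was at 93.4 CPM. Of the 10 genes in that list, 4 were fitted and 2 of them, Reln and Col1a1, rose (edgeR adjusted p = 0.03 and 0.016), where DESeq2 and limma-voom each called 1; over all genes fitted 5.15% were called higher and 1.83% lower, which holds for each list that follows. Col1a1, the type I collagen chain, was at 4.38 and 12.1 CPM in KO libraries, against 2.38, 1.91 and 1.73 CPM in controls, highest in KO replicate 2. Col3a1, the type III collagen chain, was at 4.84 and 14.3 CPM in KO libraries, against 4.95, 3.13 and 2.64 CPM in controls, so the groups overlapped, and it did not pass (edgeR adjusted p = 0.074). Reln, which makes up most of the sum, was at 93.4 and 42.3 CPM in KO libraries, the opposite order, and at 30.5, 28.1 and 30.9 CPM in controls. Pdgfrb, the 1 other gene of the list that was fitted, was at 3 and 2.33 CPM in KO libraries and 3.28, 2.67 and 2.84 CPM in controls, and the groups overlapped. The 6 genes not fitted were below 1 CPM in every library. Rgs5 was at most 0.129 CPM, Cspg4 was listed at 0 in 4 of the 5 libraries, Acta2 and Dcn were at most 0.518 CPM, and Des and Lrat were lower still. Acta2 had both KO libraries above every control, at 0.231 and 0.518 CPM against 0.193, 0.152 and 0.208 CPM. Its ratio of summed counts was 2.08, with a counting interval from 0.763 to 5.96 that includes equality. In the other unfitted genes of the list the groups overlapped.

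Endothelial markers, which would accompany Notch4 and Hey1, summed to 70.2 and 98.9 CPM in KO libraries and 83.4 to 97.6 CPM in controls, and the groups overlapped. Of the 9 fitted, none was called in edgeR, DESeq2 or limma-voom, and 2 had an unadjusted edgeR p below 0.05. Cdh5 and Stab2 had both KO libraries below every control, an arrangement held by 19.3% of all genes fitted, and none had both above. Markers of the macrophages around which erythroblasts mature were lower, at 90.2 and 83.7 CPM in KO libraries and 114 to 127 CPM in controls, and 5 of 10 fell, Adgre1, C1qc, Vcam1, Cd5l and Marco, beside 1.83% of all genes fitted. Megakaryocyte markers summed to 120 and 157 CPM in KO libraries and to 109 to 116 CPM in controls. They had no call in edgeR, 1 in DESeq2 and 3 unadjusted edgeR p-values below 0.05. Of the 6 fitted, 2 had both KO libraries above every control and 1, Ppbp, had both below. Ppbp was at 4.61 and 4.47 CPM in KO libraries, against 8.17, 5.72 and 6.66 CPM in controls. Biliary markers, which would accompany Jag1 and Hes1, summed to less than 1 CPM in every library, and Krt19 was at 0 in all 5. Lists for hepatoblasts and hepatocytes (257 and 307 CPM in KO, 218 to 345 CPM in controls), granulocytes and mast cells (652 and 556 CPM in KO, 478 to 690 CPM in controls), lymphoid cells (10.9 and 11.3 CPM in KO, 11.4 to 14.2 CPM in controls) and stem and progenitor cells (140 and 143 CPM in KO, 138 to 169 CPM in controls) had no gene that passed in edgeR and 1 with an unadjusted p below 0.05, which was a stem and progenitor marker; DESeq2 called 1 in that list. The part of these cells in the levels of the members was not tested.

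**Figure D5:**
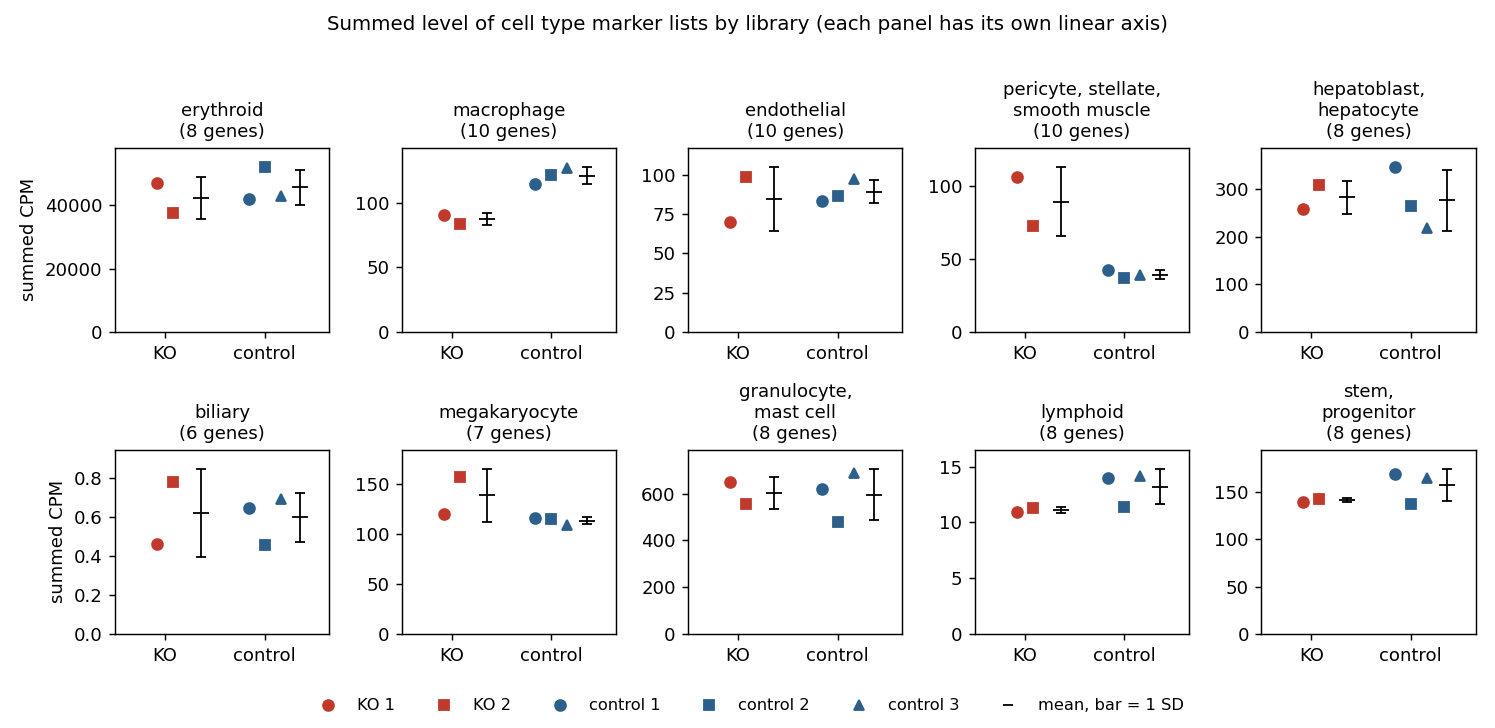
Summed CPM of each cell type marker list in the 2 KO libraries (red) and 3 control libraries (blue), with the mean and 1 SD in black; every panel has its own linear axis from 0. The pericyte, stellate and smooth muscle list lies at 106 and 72.8 CPM in KO libraries, above all controls, with Reln alone at 93.4 and 42.3 CPM. The megakaryocyte list, at 120 and 157 CPM, also lies above all controls. The macrophage list at 90.2 and 83.7 CPM and the lymphoid list at 10.9 and 11.3 CPM lie below all controls.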

How the data were processed

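Messenger RNA was sequenced on an Ion Proton instrument, per the labels' protocols, in 5 libraries, 2 from KO and 3 from control embryos, grouped by the titles in the labels. Per the submitters' processing notes, cutadapt, STAR, Bowtie and HTSeq were used on build mm10; neither versions nor strand use nor the handling of multi-mapping reads is stated there. The authors deposited whole-number counts per gene and library, not normalised. Of 39179 gene identifiers, 37607 had an entry in GENCODE M21 (GRCm38, equal to mm10), which gave symbols, positions and exon lengths.

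From these counts, KO was compared with control in edgeR 4.0.16 (R 4.3.3) with TMM scaling, filterByExpr by group, the quasi-likelihood test on group alone and Benjamini-Hochberg adjustment over the 13000 genes kept, at a threshold of 0.05. The common biological coefficient of variation was 8.67%, with 3 residual degrees of freedom per gene. The steps were also run on simulated counts whose variance is never below their mean. Low counts in these data varied less than that, so nothing is read from the simulation for genes of a few counts. Each standard error is the absolute log2 fold change over the square root of F. Counting intervals are exact 95% intervals for a ratio of summed counts and cover counting error only, since reads carry no molecular identifiers.

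The members, the wider pathway and marker lists and the tests were chosen with earlier results of these data known. Named genes are the members, Csnk2b, up to 3 called genes of each pathway list with the smallest p (or the 2 most abundant where none passed), the 2 nearest fitted protein-coding genes on each side of members on the chromosome of Csnk2b, and defining markers; 1 gene that this rule names is not reported here. Gm17276, Parp9, LTO1, Nrarp and Dll4 were added after their values were seen. No search for genes of like pattern was made. The alternatives were RLE scaling, DESeq2 1.42.0, limma-voom (limma 3.58.1), no filter, at least 5 CPM in 2 libraries, a block for the replicate number, the removal of each library, a 2 Mb window, and the longest transcript as length.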

Additional observations from a re-analysis of the deposited data

How the results depend on the processing

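Most counts moved with the filter and with single libraries, and RLE scaling, DESeq2 and limma-voom moved none of the counts of higher genes by over 1.5 times. Over all genes, 669 were called higher and 238 lower in KO; these were 235 and 53 with no filter on low counts, and 210 to 1709 and 31 to 1247 with each library left out in turn. Among the other pathway genes, 9 were higher and 1 lower, against 3 and 0 with no filter, 2 lower with DESeq2, and 4 to 16 higher and 0 to 11 lower with a library left out. Of the members, 2 were called higher, against 0 at a minimum of 5 CPM in 2 libraries, which kept neither Notch3 nor Jag2, and 1 with no filter. Within 5 Mb of Csnk2b, 29 were higher and 2 lower, against 10 and 1 with no filter and 11 to 45 and 1 to 6 with a library left out. With a library left out, the highest counts over all genes, the pathway and the window came without KO replicate 1, where the lone KO library is assumed to vary like the controls; the cause was not tested. Of 171 alternative values for 16 named pathway genes, 135 kept their side of the threshold, 33 lost a call, 3 gained one and none changed sign while called.

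The labels number replicates in both groups, but samples sharing a number did not deviate together (correlations of 0.002 for number 1 and 0.042 for number 2), so the numbers were not taken as pairs. With the replicate block, 702 genes were higher and 171 lower, 9 pathway genes were higher and 1 lower, and near Csnk2b 25 were higher and 4 lower; Epn2 and Kat2a were no longer called.

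Depth limited Jag1, Dll1, Hes1 and Hey1, which had at most 9 counts in any library, and 2 KO libraries limited the size of the difference in Notch3 and Jag2.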
